A study of Mus with 48 samples.

Results

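Levels of 10 genes that mark neurons of the cerebellar cortex were followed through 48 RNA-seq libraries of the mouse brain. The genes were Pcp2, Car8, Ppp1r17 and Skor2, known from Purkinje cells, Fat2, Cbln1, Cbln3, Zic1 and Il16, known from granule cells, and Crtam. They were taken by name, and 10 of 10 were found among the 23366 gene names of the table. They had been chosen by their FPKM levels over the 4 regions and in the substantia nigra (SN) of mouse M21, so these levels are described here without a test.

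The libraries came from the cerebellum, SN, striatum and cortex of 12 female C57BL/6J mice, bought at 8 weeks of age. The 4 saline mice (S1 to S4) received no toxin. The 4 MPTP mice (M6, M16, M21 and M23) received 10 doses of MPTP at 25 mg/kg together with probenecid, a chronic model in which the dopaminergic neurons of the SN degenerate. The 4 MPTP + EX mice (E26 to E29) received the same injections and then ran on a treadmill for 12 weeks, 5 days a week and 40 min a day, at up to 15 m/min. Regions were microdissected from the brain and frozen, so each library is a bulk sample of all cells of its piece of tissue, in which fewer cells of a type and less RNA per cell cannot be told apart.

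Purkinje cells are the output neurons of the cerebellar cortex. They receive input from granule cells, very numerous small neurons whose axons run through the molecular layer as parallel fibers. Cbln1 is secreted by granule cells and organizes the synapse between both cells. None of the other regions sampled holds either cell type.

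Values are FPKM, read fragments scaled to the length of the transcript and to all mapped fragments of the library, so levels of different genes can be set side by side. The sum of FPKM was 343661 to 402521 in 47 libraries and 619797 in the striatum library of mouse E29, which also held the fewest genes above 1 FPKM (11595, against 12809 to 13593). From the steps between low values, depth within a region differed by up to 1.57-fold, and the absolute depth is unknown. The regions carried their own markers, since Slc6a3, the dopamine transporter, averaged 92.1 FPKM in the SN and 0.0190 in the cerebellum, and Ppp1r1b, the striatal phosphoprotein DARPP-32, averaged 1894 FPKM in the striatum and 168 in the cortex.

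In the cerebellum all 10 genes were detected in every mouse. Pcp2, a regulator of G protein signaling in Purkinje cells, was the most abundant of them, with a lowest value of 855 FPKM, a median of 1035 and a highest of 1178 over the 12 libraries. Car8, which binds the IP3 receptor of Purkinje cells, lay at 218 to 292 FPKM with a median of 261. Ppp1r17, a phosphatase inhibitor phosphorylated by cGMP-dependent kinase, lay at 93.6 to 126 FPKM with a median of 116. These levels were steady from mouse to mouse. Skor2, a transcriptional corepressor needed for Purkinje cells to mature, was by far the lowest, at 6.21 to 10.3 FPKM with a median of 7.77.

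Among the others, Cbln1 lay at 379 to 483 FPKM with a median of 429. Cbln3, which is secreted only in a complex with Cbln1, lay at 279 to 335 FPKM with a median of 298. Zic1, a zinc finger transcription factor of the granule cell lineage, lay at 277 to 333 FPKM with a median of 310.3. Zic1 and Cbln3 therefore overlapped almost fully, and the lower end of Cbln3 reached the upper end of Car8, while Pcp2 and Cbln1 stood clear of every other member. Fat2, a large protocadherin on granule cells and their axons, lay at 50.6 to 69.2 FPKM, and Il16, whose neuronal form is made by granule cells, at 34.9 to 46.0. Crtam, an adhesion molecule known from activated T cells, lay at 22.5 to 32.4 FPKM. Fat2, Il16, Crtam and Skor2 followed each other in this order without overlap. The coefficient of variation over the 12 cerebellum libraries ran from 5.83% for Cbln3 to 16.2% for Skor2.

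**Figure D1:**
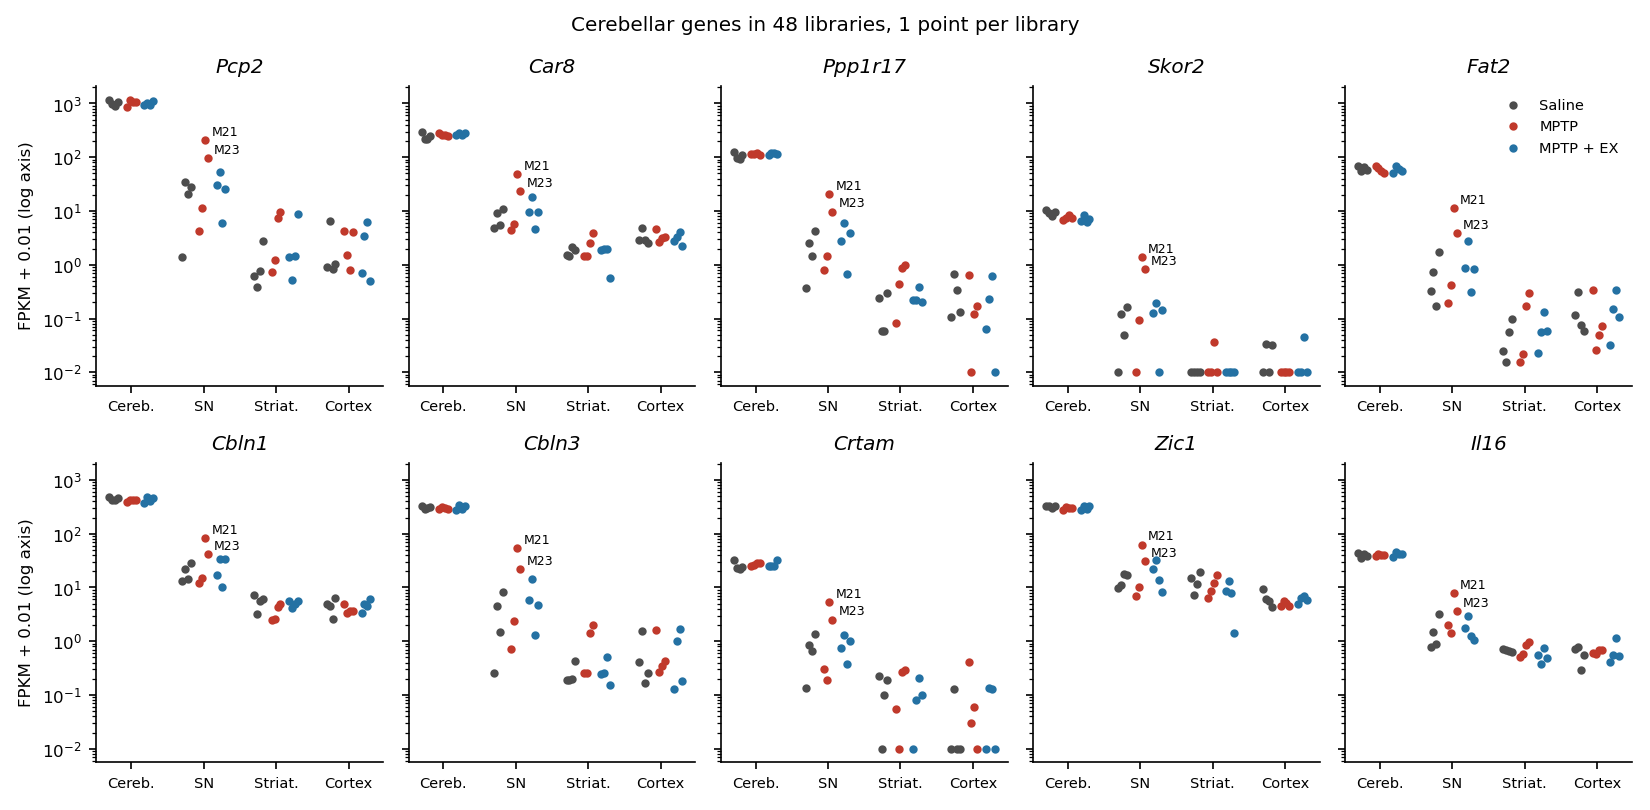
FPKM plus 0.01 on a log axis for the 10 genes, 1 panel per gene and 1 point per library, by region (Cereb., cerebellum; Striat., striatum) and group (gray saline, red MPTP, blue MPTP + EX), with the SN libraries of mice M21 and M23 marked. All cerebellum libraries lie above all others, the lowest of them 4.04-fold to 5.12-fold above the highest library elsewhere, which is the SN library of M21 for every gene.

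Outside the cerebellum the members differed in how far they fell. Zic1 kept a median of 9.999 FPKM in the striatum and 5.54 in the cortex, and its lowest cerebellum library was only 14.1-fold above its highest library of these regions. Cbln1 had medians of 4.87 and 4.47 FPKM there, and Car8 of 1.88 and 3.03. These 3 were the most abundant members in both regions by their medians. Pcp2 had medians of 1.29 FPKM in the striatum and 1.26 in the cortex, below its cerebellum median by 801-fold and 819-fold. Cbln3 was below its cerebellum median by 1218-fold in the striatum and 792-fold in the cortex, and Fat2 by 1279-fold and 718-fold. Skor2 was listed at 0 in 11 of 12 striatum and 9 of 12 cortex libraries, and Crtam in 3 and 6.

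By their medians all 10 members were higher in the SN than in the striatum and cortex, but the SN libraries varied far more than those of the cerebellum, and some lay no higher than the forebrain of the same mouse, such as Zic1 in S1 (9.89 FPKM in the SN and 14.7 in the striatum). Pcp2 was 1.36, 34.6, 20.9 and 28.4 FPKM in mice S1 to S4, 4.32, 11.5, 211.7 and 94.8 in M6, M16, M21 and M23, and 30.2, 52.8, 5.96 and 26.1 in E26 to E29. The libraries of M21 and M23 were above all others, while the other MPTP libraries, M6 and M16, were below most saline and MPTP + EX libraries, so the groups overlapped. Cbln3 was 0.251, 4.50, 1.48 and 8.09 FPKM in S1 to S4, 0.720, 2.42, 54.5 and 22.3 in the MPTP mice in the same order, and 5.73, 14.3, 1.27 and 4.63 in E26 to E29. Fat2 was 0.319, 0.715, 0.158 and 1.70 FPKM with saline, 0.188, 0.407, 11.5 and 3.82 with MPTP, and 0.862, 2.76, 0.308 and 0.831 with MPTP + EX. M21, M23 and E27 were thus the highest 3 libraries for this Purkinje cell gene and for both granule cell genes.

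Zic1, Cbln1 and Car8, the members with the highest medians in the striatum and cortex, were also highest in M21. Zic1 was 9.89, 11.2, 17.8 and 17.1 FPKM with saline, 6.90, 10.2, 62.8 and 30.8 with MPTP, and 22.2, 32.5, 13.8 and 8.41 with MPTP + EX. Skor2, at 1.36 FPKM in M21 and 0.823 in M23, was at most 0.181 in the other libraries and listed at 0 in S1, M6 and E28. In M21, Cbln1 was 84.4 FPKM (at most 42.1 in any other SN library), Car8 49.1 (23.6), Ppp1r17 20.7 (9.73), Il16 7.81 (3.68) and Crtam 5.35 (2.53). The library of M21 was the highest of 12 for 10 of 10 members, and that of M23 second for 9 of them, the exception being Zic1, where E27 was second. M21 was the highest SN library for 8.73% of the 13483 genes with a mean above 1 FPKM, a set that 9 members belong to and Skor2 does not. Since the members were chosen with this library in view, nothing is read from that difference.

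Levels in the SN were also set against the cerebellum of the same mouse. In M21 the SN level was 16.1% (Skor2) to 20.9% (Fat2) of the cerebellum level, with a median of 19.3% over the 10 genes. In M23 it was 7.56% (Fat2) to 11.2% (Skor2), with a median of 9.14%. The lowest member of M21 was thus above the highest of M23. The medians of the other 10 mice ran from 0.420% in S1 to 5.20% in E27, by way of 4.12% in S4, 3.48% in S2, 3.10% in E26, 2.56% in E29, 2.23% in S3, 1.19% in M16, 1.05% in E28 and 0.935% in M6. In these mice Zic1, Cbln1 or Il16 had the highest percentage and Skor2, Fat2 or Cbln3 the lowest, so relative to their median the members spread more widely than in M21 and M23. Single values reached into the range of M23, such as Zic1 in E27 (9.78%) and Il16 in S4 (8.39%).

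**Figure D2:**
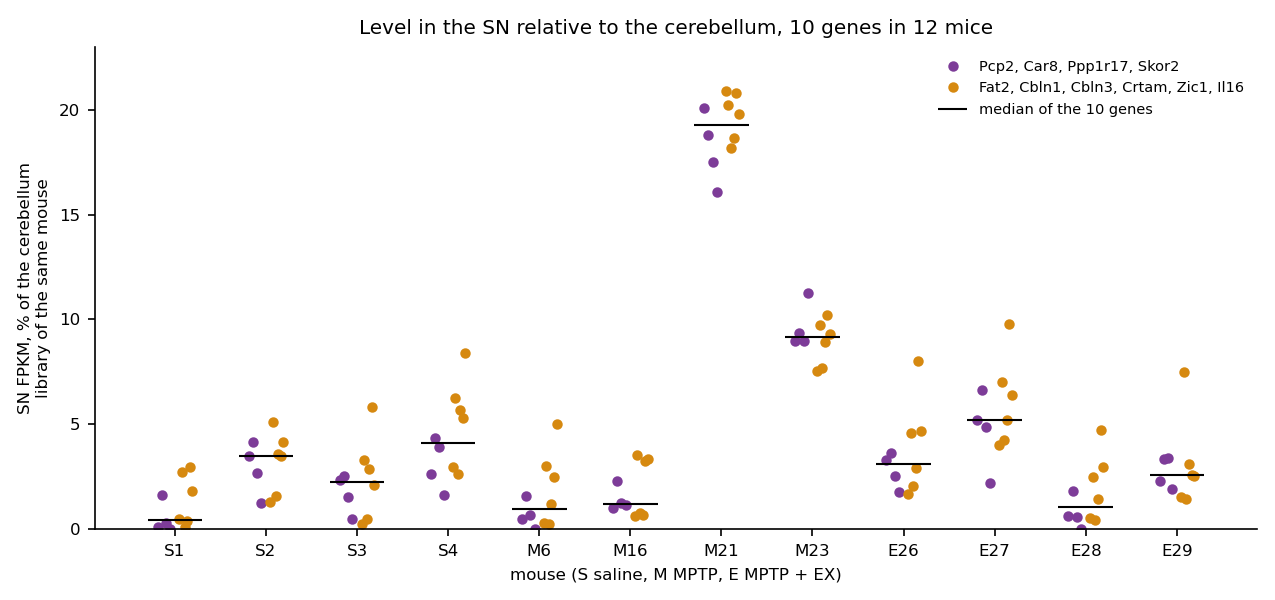
SN FPKM as a percentage of the cerebellum library of the same mouse (linear axis), 1 point per gene and mouse, purple for the 4 Purkinje cell genes and orange for the other 6, with a bar at the median of the 10 genes. The points of M21 lie between 16.1% and 20.9% and those of M23 between 7.56% and 11.2%, while in 10 mice the median is at most 5.20%. Single points of these mice reach into the range of M23 (Zic1 9.78% in E27 and 8.01% in E26, Il16 8.39% in S4).

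The balance between both sets of genes was compared as well. The 4 Purkinje cell genes made up 50.9% to 56.2% of the summed FPKM of the 10 members in the cerebellum libraries, 55.6% in the SN of M21 and 55.1% in that of M23. In the SN of M21 Pcp2 alone was 212 of the 283 FPKM of these 4 genes, so this share rests mostly on Pcp2. It uses levels by which the members were chosen and is a description only. In the other 10 SN libraries they made up 20.97% (S1) to 53.3% (S2). In S1, where the members summed to 31.0 FPKM against 509 in M21, most of the sum was Cbln1 and Zic1.

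The level of M21 above the median of the other 11 SN libraries, divided by its own cerebellum level, was 16.1% at the median of the members (SD 1.37 over the 10 genes, from 14.8% for Skor2 to 19.6% for Fat2). Group means in the SN rested on these libraries. Mean Pcp2 was 80.6 ± 96.6 FPKM with MPTP (SD, n = 4), 36.9 without M21 and 7.90 without M21 and M23, against 21.3 ± 14.4 with saline and 28.8 ± 19.2 with MPTP + EX (SD, n = 4 each). Mean Zic1 was 27.7 ± 25.7 FPKM with MPTP, 15.97 without M21 and 8.55 without both, against 14.0 ± 4.01 with saline and 19.2 ± 10.5 with MPTP + EX. For both genes the MPTP mean lay above that of the other groups with all libraries and below them without M21 and M23. Leaving out the highest libraries of a group lowers its mean by construction, and only 2 remained. Mean Il16 without both was 1.68 FPKM, above saline at 1.57 and below MPTP + EX at 1.74.

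Other genes of the same cells were also high in the SN of M21. Of 25 further Purkinje cell genes, all with a mean above 1 FPKM in the SN, 17 had their highest SN value in M21. Of 27 further granule cell genes 23 had such a mean, and 18 of these were highest in M21, beside 8.73% of all genes. The mean includes M21, so a low gene can pass through its value there. Crtam did so, with a mean of 1.23 FPKM and 0.852 without M21. These counts are therefore a description only. Itpr1, the IP3 receptor, was 69.9 FPKM in M21 and at most 48.2 in the other SN libraries, and Calb1, a calcium buffer of Purkinje cells, 60.1 and at most 42.1. Pvalb, Gng13, Pcp4 and Aldoc, the other abundant Purkinje cell genes, were highest in M21 too, Pcp4 by only 448 against 437 FPKM. Gabra6, the GABA receptor subunit of granule cells, was 37.1 FPKM against at most 15.9, and Neurod1, a transcription factor of these cells, 29.3 against at most 12.7. Chn2 and Diras2, which act on or as small GTPases, were highest in M21 as well, whereas Slc17a7, the vesicular glutamate transporter also used in the neocortex, and Calb2, a calcium buffer, were not (61.1 against up to 138, and 97.8 against up to 110.4 FPKM).

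Of the lists for other cells of the cerebellum, 4 of 11 Bergmann glia genes and 2 of 8 interneuron genes were highest in M21. Of lists from outside it, M21 was highest for 0 of 14 dopaminergic neuron, 0 of 14 neocortical neuron, 0 of 12 oligodendrocyte, 0 of 5 choroid plexus, 0 of 2 hindbrain and 1 of 8 medium spiny neuron genes. Only genes with a mean above 1 FPKM in the SN were counted, so 5 of 12 choroid plexus and 2 of 17 hindbrain genes entered. M21 was highest for 8.73% of all genes with such a mean, so a count of 0 or 1 in lists this short is near that share. As above, the mean includes M21, and these counts are a description only. Summed over all its genes, the Bergmann glia list was highest in M21 (727 FPKM against at most 719). So were the interneuron (240.3 against at most 223) and medium spiny neuron lists (251 against at most 247). The neocortical, oligodendrocyte, choroid plexus and hindbrain sums of M21 lay inside the range of the other SN libraries. The summed FPKM of the 14 dopaminergic genes was 338 in M21, the highest of the MPTP libraries (lowest 267), against 795 to 1691 with saline and 238 to 364 with MPTP + EX. Their summed level in M21 was therefore above that of the other MPTP libraries and inside the range of the MPTP + EX libraries.

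A wider set was made of all genes with at least 5 FPKM in the cerebellum and a mean there at least 50-fold above both cortex and striatum. It held 35 genes, among them 9 members (all but Zic1), and of the 26 others 20 were highest in M21 and 14 had M23 second. M21 was highest for 8.73% of all genes with a mean above 1 FPKM in the SN, a filter not used for this set. No share over all genes was taken for M23 second, so that count is only a description. Over the 48 libraries, the genes most like the Purkinje cell members were Gabra6 (Pearson r = 0.9955), Arhgef33 (0.9941), Cnpy1 (0.9934), Hes3 (0.9923) and Iltifb (0.9923). Those most like the other 6 members were Arhgef33 (0.9957), Cnpy1 (0.9952), Iltifb (0.9944), Barhl2 (0.9935) and Ptpn22 (0.9931). These correlations describe log2(FPKM + 1) in 48 libraries that share 12 mice and in which the 12 cerebellum libraries lie far from the rest. Cell types were not separated by them, as Gabra6, a granule cell gene, came first for the Purkinje cell members.

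By the ratio of FPKM + 1 in the SN of M21 to that of the highest other SN library, the 5 leading genes were not members. Prl, prolactin, was 934 FPKM there and 1.54 to 140.3 in the other SN libraries, with E26, M23 and S4 next at 140.3, 132 and 124. Gh, growth hormone, was 396 FPKM against at most 62.0, and Cga, the common subunit of the pituitary glycoprotein hormones, 13.1 against at most 1.51. Lhb, the beta subunit of luteinizing hormone, was 6.25 FPKM against at most 1.137. These are hormones of the anterior pituitary, and in the cerebellum of M21 Prl, Gh, Cga and Lhb were 7.48, 2.71, 0 and 0.576 FPKM. The fifth was Bpifb1 (2.26 FPKM against at most 0.250). The next 5 genes outside the members by this ratio were Hes3, Gabra6, Neurod1, Eomes and AI848285, whose SN level in M21 was 18.0% (Gabra6) to 32.4% (AI848285) of its cerebellum level and which all had M23 second. The order of the libraries differed from that of the members, since Prl was 9.33 FPKM in E27, the third of 12 for Pcp2. What part tissue of the cerebellum or of the pituitary had in these SN values was not tested.

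**Figure D3:**
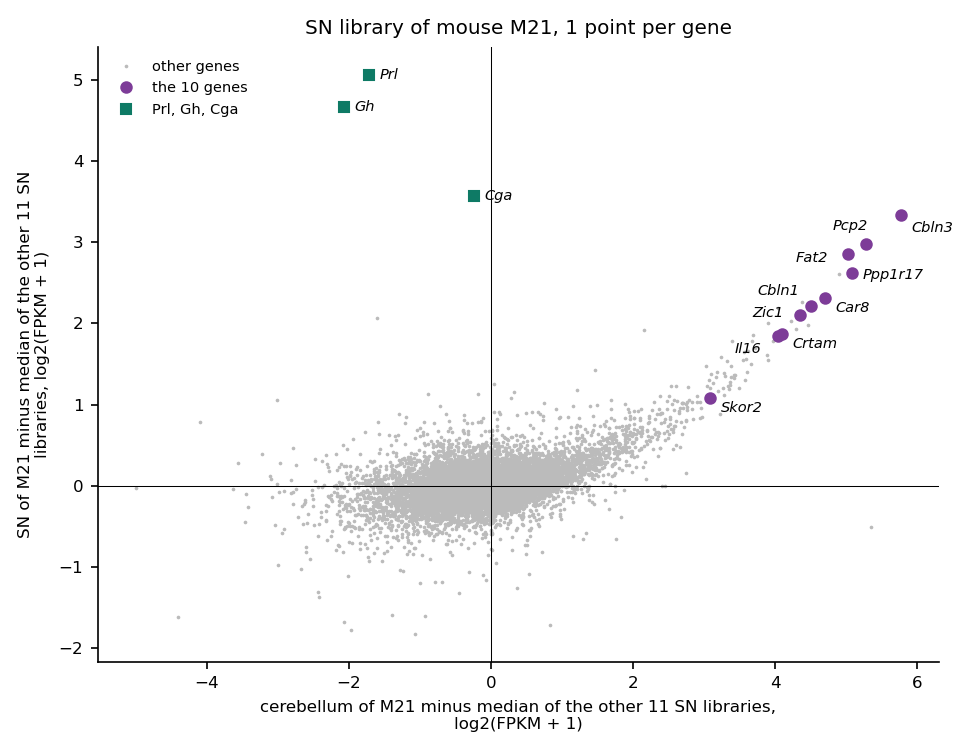
Difference from the median of the other 11 SN libraries in log2(FPKM + 1), for the SN library of M21 (vertical) and the cerebellum library of M21 (horizontal), 1 point per gene for 13832 genes. The 10 members (purple) lie at the upper right, along the arm of genes that are higher in the cerebellum, while Prl, Gh and Cga (green squares) are high in the SN of M21 and not in its cerebellum.

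In the striatum the libraries of M23 and M21 again led, at a far lower level. Cbln3 was 0.181 to 0.419 FPKM with saline, 0.247, 0.243, 1.39 and 1.96 in M6, M16, M21 and M23, and 0.143 to 0.499 with MPTP + EX. Ppp1r17, Fat2, Crtam, Il16 and Car8 also had M23 first and M21 second. Pcp2 was 9.46 FPKM in M23, 8.89 in E29, 7.37 in M21 and at most 2.71 in the other 9 mice. E29 was high for Pcp2 but lowest of the 12 for Car8 (0.567 FPKM), Zic1 (1.41) and Cbln3, in the library whose FPKM sum also stood apart. Cbln1 and Zic1 had other orders, with S1 highest for Cbln1 and S4 for Zic1.

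In the cortex other mice were high. Cbln3 was 1.52 FPKM in S2, 1.58 in M6 and 1.67 in E28, and at most 0.989 elsewhere. Pcp2 was 6.49, 4.29 and 6.24 FPKM in these mice and at most 4.00 elsewhere, and Ppp1r17 and Fat2 were highest in the same 3 mice. These are 1 mouse of each group, so in the cortex the high values ran across the groups. Even there, Pcp2 and Cbln3 were under 1% of the cerebellum of the same mouse.

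**Figure D4:**
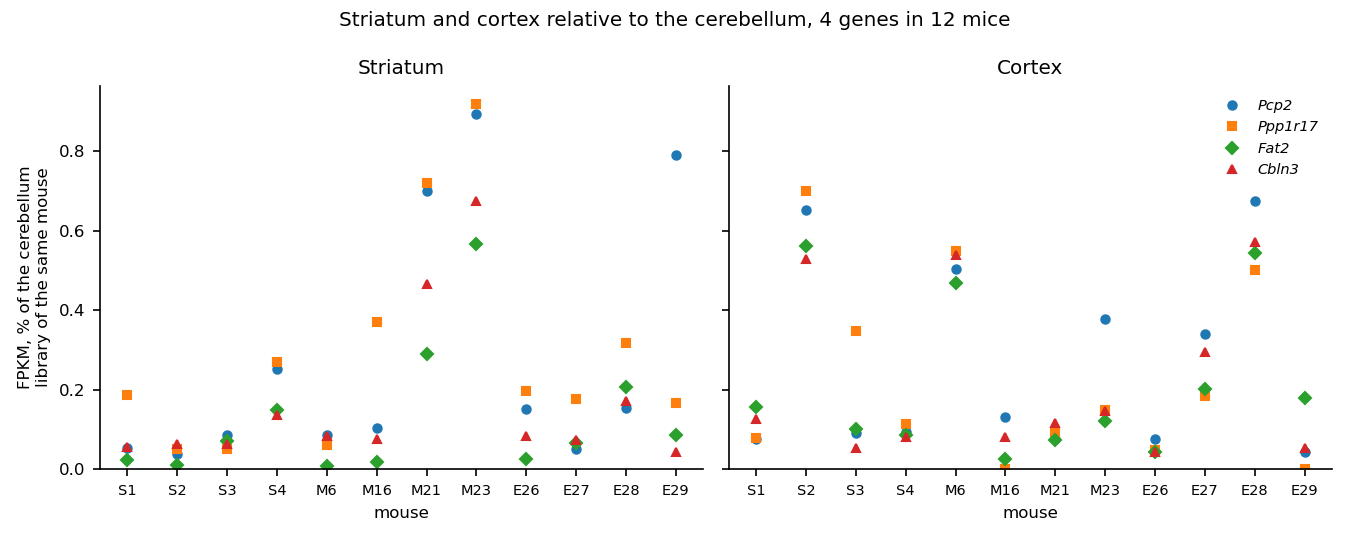
FPKM in the striatum (left) and cortex (right) as a percentage of the cerebellum library of the same mouse (linear axis), for Pcp2, Ppp1r17, Fat2 and Cbln3 in 12 mice. In the striatum M21 and M23 are high for all 4 genes and E29 for Pcp2 alone, and in the cortex S2, M6 and E28 are high, all below 1%.

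Whether MPTP or exercise went with a change of these genes in the cerebellum itself was tested with limma over the 12949 genes with a mean above 1 FPKM, which included all 10 members. With MPTP, 0 of 10 members differed from saline (lowest adjusted p = 0.284), where 0% of all genes did. At an unadjusted p under 0.05 there was 1 member, beside 11.9% of all genes. Exercise after MPTP gave 0 of 10 against MPTP (0.0154% of all genes), with 0 at an unadjusted p under 0.05 (5.78% of all genes). MPTP + EX gave 0 of 10 against saline (0% of all genes), with 1 at an unadjusted p under 0.05 (16.9% of all genes). Values of the groups overlapped for all 10 members in the 3 comparisons, whereas 5.93%, 3.63% and 9.68% of all genes did not overlap.

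The member below 0.05 was Skor2 both times. It was 10.3, 9.12, 8.22 and 9.49 FPKM in S1 to S4, 6.69, 7.24, 8.47 and 7.32 in M6, M16, M21 and M23, and 6.55, 8.23, 6.21 and 7.08 in E26 to E29. All but 1 saline value lay above every MPTP and MPTP + EX value, and S3 fell just below M21 and E27. On the log2(FPKM + 1) scale the difference from saline was -0.29 ± 0.09 (SE) with MPTP (adjusted p = 0.284 from limma) and -0.36 ± 0.09 with MPTP + EX (adjusted p = 0.151 from limma). With each mouse left out in turn, the adjusted p of the latter was 0.112 to 0.339. Both comparisons share the saline mice.

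For the other 9 members every interval included 0. Pcp2 was 1034 ± 125 FPKM with saline, 1030.0 ± 125 with MPTP and 997 ± 97.0 with MPTP + EX (SD, n = 4 each), and its log2 difference between MPTP and saline had a 95% interval of -0.23 to 0.22. Cbln1 was 448 ± 25.8, 418 ± 16.3 and 429 ± 45.0 FPKM, with an interval of -0.25 to 0.05 for MPTP against saline. Zic1 was 320.3 ± 10.9, 299 ± 15.5 and 306 ± 26.4 FPKM, with an interval of -0.23 to 0.03. The Purkinje cell genes Car8 and Ppp1r17 were highest on average with MPTP + EX, where their intervals against saline were -0.01 to 0.34 and -0.02 to 0.31. The median log2 difference of the 10 members was -0.01 for MPTP against saline, 0.02 for MPTP + EX against MPTP and -0.02 for MPTP + EX against saline, beside 0.02, 0.0022 and 0.02 over all genes tested.

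**Figure D5:**
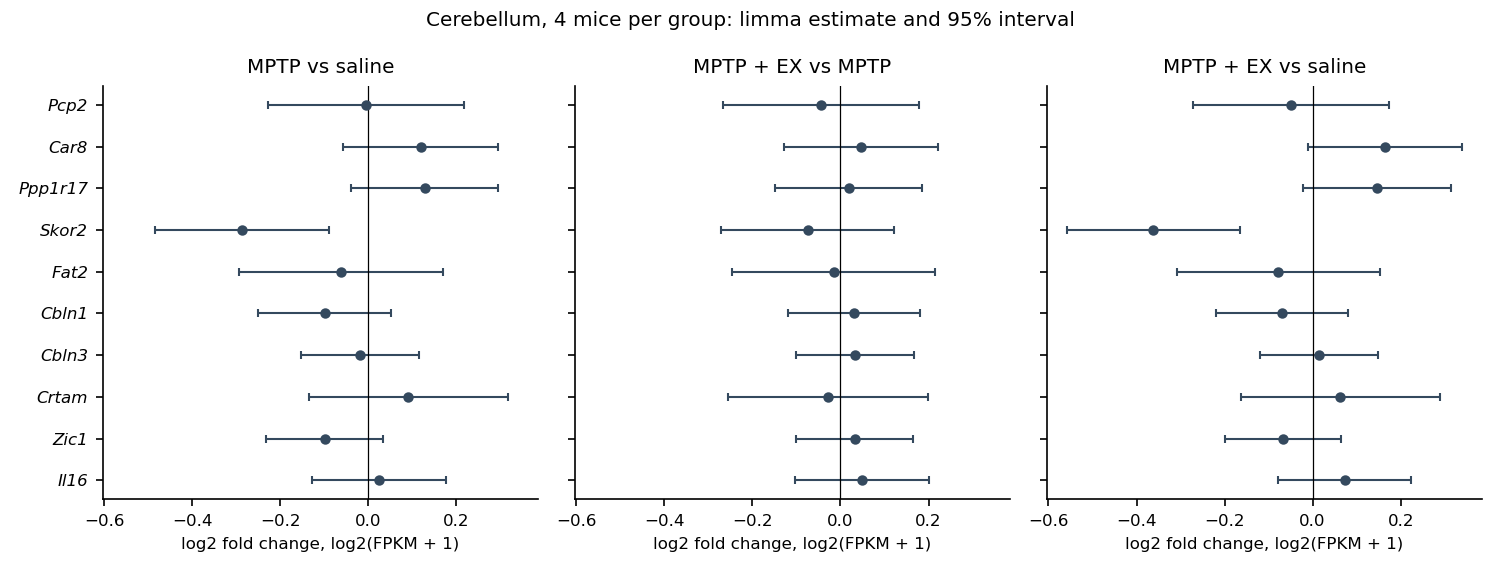
Difference in log2(FPKM + 1) between groups in the cerebellum for the 10 genes, as the limma estimate (point) with its 95% interval (bar), 4 mice per group, with a line at 0. Every interval crosses 0 except those of Skor2 against saline, whose estimates are -0.29 with MPTP and -0.36 with MPTP + EX and do not pass adjustment over all genes.

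No further Purkinje or granule cell gene passed adjustment in the cerebellum. Of 25 other Purkinje cell genes, 15 were above 0 and 10 below for MPTP against saline, with a median log2 difference of 0.04. Of 26 other granule cell genes, 7 were above 0 and 19 below, with a median of -0.07 against 0.02 over all genes, and at an unadjusted p under 0.05 there was 1 higher (6.13% of all genes) and 6 lower (5.75% of all genes). For MPTP + EX against MPTP 22 of the 26 were above 0, with a median of 0.08 and 6 higher at an unadjusted p under 0.05 (3.29% of all genes). For MPTP + EX against saline 13 were above 0 and 13 below, with 6 higher (9.78% of all genes) and 3 lower (7.1% of all genes) at an unadjusted p under 0.05. The comparisons share mice, so their signs are not independent. Of 12 oligodendrocyte genes, 11 were above 0 for MPTP against saline (median 0.12), with 2 higher at an unadjusted p under 0.05 (6.13% of all genes). For MPTP + EX against MPTP 10 were below 0 (median -0.05), with 0 at an unadjusted p under 0.05 in either direction (5.78% of all genes). All 9 choroid plexus genes tested were above 0 against saline, with medians of 0.38 for MPTP and 0.58 for MPTP + EX. None lay under an unadjusted p of 0.05, beside 11.9% and 16.9% of all genes. No share of all genes above or below 0 was taken, so the counts of signs are a description only. The part of oligodendrocytes or choroid plexus in the values of the granule cell genes was not tested.

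In the cortex and striatum only Pcp2, Car8, Cbln1 and Zic1 passed the filter of a mean above 1 FPKM. Of these 4, 0 passed adjustment in any of the 6 comparisons with limma, as did 0% of all genes in each, and 0 lay under an unadjusted p of 0.05. Of all genes, 20%, 5.73% and 17.1% did so in the cortex for MPTP against saline, MPTP + EX against MPTP and MPTP + EX against saline, and 1.06%, 3.75% and 2.76% in the striatum. In the striatum Pcp2 was 4.69 ± 4.39 FPKM with MPTP and 1.11 ± 1.07 with saline (SD, n = 4), a log2 difference of 1.13 with a 95% interval of -0.37 to 2.63 and values of 0.735, 1.199, 7.37 and 9.46 FPKM in M6, M16, M21 and M23. Cbln1 was 3.596 ± 1.23 FPKM against 5.52 ± 1.65, a log2 difference of -0.50 with an interval of -1.01 to 0.0050. In both striatal comparisons with MPTP + EX the median of all genes was shifted by -0.11, in the group that holds the E29 library. Since the 3 groups of a region shared 1 fit, E29 also entered the spread used for MPTP against saline in the striatum. The 1.06% of that comparison is therefore not read as an absence of change. In the cortex the largest difference in size from saline with MPTP was that of Pcp2, 0.30 with an interval of -0.87 to 1.48.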

How the data were processed

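RNA of dissected cerebellum, SN, striatum and cortex was sequenced by the authors, who deposited 1 table of FPKM per gene name and library. The submitters' processing notes list HISAT2 (version 2.1), HTSeq (version 0.11) and build mm9, whereas the published methods list Tophat2, Cufflinks, RSEM and DESeq. The pipeline behind the table is therefore not settled. Columns were assigned to region and group from their names, and mice from the start of the names. The labels give replicate numbers without a mouse. Of 23366 names, 27 turned into dates by a spreadsheet were left out.

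FPKM are not counts, so limma (version 3.58.1, R 4.3.3) was run on log2(FPKM + 1) with an intensity trend, 3 groups of a region in 1 fit, genes with a mean above 1 FPKM, two-sided tests and Benjamini-Hochberg adjustment over all genes of the region (threshold 0.05). Fold changes on this scale understate changes of low genes. It was tested on simulated data. Mice are separate animals. Depth is unknown, so precision comes from the spread between 4 mice. SN contrasts and region levels of the members were not tested, because the members were chosen from them. Named beyond the members were the 6 most abundant genes of each list of other Purkinje and granule cell genes, those passing adjustment, the 5 genes most like the Purkinje cell members and the other members and the 10 other genes with the highest ratio of FPKM + 1 in the SN of M21 to the highest other SN library. The members and lists were chosen with earlier results of these data known. Alternatives were a pseudocount of 0.1, no filter, scaling to a common median, quantile normalization, a fit of 2 groups, no trend and leaving out each library. Python 3.11.15, pandas 2.3.3 and matplotlib 3.10.9 were used. No sequence is shown, as no genome was used.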

Additional observations from a re-analysis of the deposited data

Results flagged for a closer look

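Of 117 groups of 4 libraries with values for a member, 14 held a library far from the other 3, where chance gives about 1 in 20 for independent, normally distributed values. The members share libraries, and 1 library can be flagged for several of them, so the 14 are not read against that rate. In 3 of the 14 (Skor2 in the striatum of M21 and the cortex of E28, and Crtam in the cortex of S2) the other 3 libraries were listed at 0, so any value above 0 stands apart and that rate does not apply. Most were high values in the cortex and striatum. In the cortex, mouse S2 was high among the saline mice for Pcp2 (6.49 FPKM against 0.807 to 1.01) and Crtam (0.118 against 0), and M6 among the MPTP mice for Fat2 (0.323 against 0.0163 to 0.0612), Cbln3 (1.58 against 0.253 to 0.425) and Crtam (0.406 against 0 to 0.0504). Skor2 was 0.0347 FPKM in the cortex of E28 and 0.0260 in the striatum of M21, and listed at 0 in the rest of their groups.

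In the striatum, S4 was high among the saline mice for Pcp2 (2.71 FPKM against 0.370 to 0.757) and Cbln3 (0.419 against 0.181 to 0.189), and E28 among the MPTP + EX mice for Ppp1r17 (0.380 against 0.194 to 0.215). The striatum library of E29 was high for Pcp2 (8.89 FPKM against 0.511 to 1.42) and low for Car8 (0.567 against 1.89 to 1.92). In the cerebellum, Crtam was 32.0 FPKM in E29 against 24.8 to 25.1 in the other MPTP + EX mice, and Il16 was 41.6 FPKM in M16 against 39.3 to 39.6 in the other MPTP mice. The SN library of M21 is not among these because M23 was also high in its group.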

How the results depend on the processing

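No member passed adjustment over all genes with limma in the cerebellum, cortex or striatum under any alternative or with any library left out, so all 9 counts stayed at 0. Directions of small differences did change. The log2 difference between MPTP + EX and MPTP in the cerebellum became 0.039 for Pcp2 with quantile normalization and -0.00113 for Ppp1r17 with scaling to a common median, and that of Cbln3 between MPTP + EX and saline became -0.017 with this scaling. In the striatum, quantile normalization turned the differences between MPTP + EX and saline to 0.11 for Car8 and 0.098 for Cbln1. The cause was not tested. With each library left out in turn, these log2 differences changed sign. In the cerebellum, MPTP against saline, the ranges were Pcp2 -0.079 to 0.081, Fat2 -0.14 to 0.0097, Cbln3 -0.047 to 0.011 and Il16 -0.031 to 0.067. In the cerebellum, MPTP + EX against MPTP, the ranges were Pcp2 -0.13 to 0.013, Ppp1r17 -0.0085 to 0.048, Fat2 -0.093 to 0.058, Cbln1 -0.024 to 0.087, Cbln3 -0.0083 to 0.080, Crtam -0.11 to 0.0048, Zic1 -0.0087 to 0.079 and Il16 -0.0017 to 0.10. In the cerebellum, MPTP + EX against saline, the ranges were Pcp2 -0.12 to 0.016, Cbln3 -0.028 to 0.060 and Crtam -0.024 to 0.18. In the cortex, MPTP against saline, the range was Car8 -0.051 to 0.22. In the cortex, MPTP + EX against MPTP, the range was Pcp2 -0.56 to 0.20. In the cortex, MPTP + EX against saline, the ranges were Pcp2 -0.25 to 0.66, Car8 -0.17 to 0.095, Cbln1 -0.16 to 0.20 and Zic1 -0.17 to 0.15. In the striatum, MPTP + EX against saline, the ranges were Car8 -0.20 to 0.099 and Cbln1 -0.27 to 0.044. The other differences kept their sign, Skor2 against saline among them.

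The excess of M21 in the SN, as a percentage of its cerebellum, had a median of 17.0% with the other 3 MPTP libraries as the base, 16.1% with the mean of the 12 cerebellum libraries as the denominator and 17.2% after scaling to a common median. Among the excesses of the single members and their median under these settings, 29 moved by less than the SD over the members and 4 by more. Leaving out M21 and M23 together was chosen after the data were seen. No paired analysis was possible between the treatment groups, because the groups hold different mice. Regions were paired within a mouse by the start of the column names, for the percentages of the cerebellum of the same mouse. The absolute depth is unknown, and no upper limit was computed for a listed 0. Values of a few hundredths of an FPKM in the cortex and striatum lay near the smallest step of their library.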
